A study of Mus musculus with 4 samples.

Results

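The heat shock proteins and the DnaJ chaperones were examined in 4 bulk RNA-seq libraries of cells sorted out of the mouse AGM (aorta-gonad-mesonephros) at embryonic day 11. The genes were taken by symbol alone, with no measured value: protein coding genes whose symbols begin with Hspa, Hspb, Hspd, Hspe, Hsph, Hsp90, Dnaja, Dnajb or Dnajc, without Hspbap1. This gave 70 members among the 51205 genes of the table, of which 20776 were protein coding. They comprised 11 HSP70 genes, 3 HSP110 genes, 3 HSP90 genes, the HSP60 and HSP10 pair, 8 genes with small heat shock protein symbols, 3 DNAJA, 13 DNAJB and 26 DNAJC genes, and the HSP70 cofactor Hspbp1. Dnaja3, Dnajc3 and Dnajc15 were not among the members, so the DNAJA and DNAJC families are not complete here. A symbol is no proof of function, and Hspb11, for example, encodes an intraflagellar transport protein.

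The cells came from embryos labelled wild type that carry a GFP reporter of Runx1, the transcription factor required for blood cell emergence. The supplement of the study describes pooled embryos with 1 or with both reporter copies. Every population was sorted as CD31+ and negative for the pericyte markers NG2 and PDGFRB. Among ckit-CD45- cells, Runx1(GFP)- cells were endothelial cells (ECs) and Runx1(GFP)+ cells were hemogenic endothelial cells (HECs), the endothelium from which blood cells bud. The ckit+ cells were labelled as intra-aortic hematopoietic cluster cells (IAHCs), taken as Runx1+ and Runx1- fractions whatever their CD45. Each of these 4 populations had 1 library, so no difference below has a replicate check, and none was tested. By the study's account, the Runx1- IAHC library was made from very few cells, far fewer than any other, and the EC library from by far the most. How far the levels of so few cells stand for their population was not tested.

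Chaperones bind unfolded or partly folded proteins and keep them from aggregating. HSP70 proteins work in cycles of ATP hydrolysis: a DnaJ protein delivers the client and starts hydrolysis, and a nucleotide exchange factor such as an HSP110 protein releases it. HSP90 takes over clients that are nearly folded, among them kinases and steroid receptors, and HSP60 with its lid HSP10 encloses proteins inside the mitochondrion. Parallel sets work in the cytosol, the endoplasmic reticulum (ER) and the mitochondrion. Some members are made constantly, and others are induced by heat or other stress through heat shock factors.

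Levels are in TPM, read counts scaled per annotated exonic length of a gene and per library total. Genes are set side by side on this scale, so ratios between genes depend on the annotated lengths. Values without a library name are in the order ECs, HECs, Runx1+ IAHCs and Runx1- IAHCs. Whole reads could be recovered from the deposited values, with totals from 13188697 reads in ECs to 17233015 in Runx1- IAHCs. Intervals given with a fold are exact 95% intervals of the ratio of reads and cover counting error of the reads only, not the sampling of cells. At least 1 read was found for 60 members in ECs, 57 in HECs and, among IAHCs, 63 in the Runx1+ and 56 in the Runx1- library. Markers of other cells differed strongly between the libraries. The summed level of 12 primordial germ cell genes was 7046 TPM in Runx1- IAHCs, but 687.8 TPM in ECs, 17.6 TPM in HECs and only 4.43 TPM in Runx1+ IAHCs. All 12 had reads in Runx1- IAHCs and in ECs, while 3 had none in HECs and 5 none in Runx1+ IAHCs. Platelet genes summed to 53860 TPM in HECs against 76.3 to 421.6 TPM in the other libraries. Erythroid genes summed to 47610 TPM in ECs and 24580 TPM in HECs, against 484.1 and 467.6 TPM in Runx1+ and Runx1- IAHCs. Endothelial genes summed to 2959 TPM in ECs and 2980 TPM in Runx1- IAHCs, but to 357.3 and 168.6 TPM in HECs and Runx1+ IAHCs. Pan-hematopoietic genes summed to 126.0 TPM in ECs, 3621 TPM in HECs, 2266 TPM in Runx1+ IAHCs and 114.5 TPM in Runx1- IAHCs. In Runx1- IAHCs, 4 of the 13 pan-hematopoietic genes had no read. Granulocyte and monocyte progenitor genes summed to 2.2, 424.6, 980.0 and 3.82 TPM in the same order. The part of these cells in the chaperone levels was not tested, and in bulk RNA fewer cells of a type and less RNA per cell cannot be told apart.

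The 70 members together took 3567 TPM in ECs, 5175 TPM in HECs and, among IAHCs, 7051 TPM in the Runx1+ and 8820 TPM in the Runx1- library. These sums were 0.357%, 0.518%, 0.705% and 0.882% of the TPM scale. The order of both IAHC libraries depended on the scaling. With the libraries scaled over protein coding genes without mitochondrial, ribosomal protein and hemoglobin genes, the sums were 4505, 4617, 7604 and 7260 TPM in the same order. A handful of genes carried the sums: the 5 members at the highest level made up 59.7% of the total in ECs, 68.4% in HECs and, among IAHCs, 70.7% in the Runx1+ and 65.8% in the Runx1- library. Hsp90ab1 alone made up 20.4% to 33.6%.

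**Figure D1:**
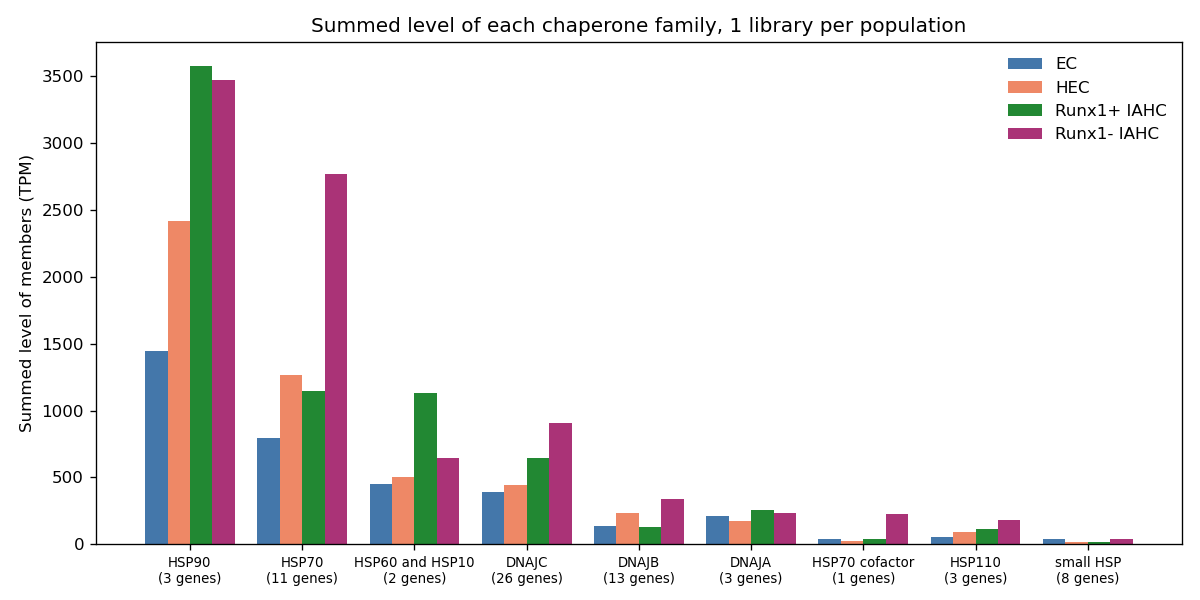
Summed level in TPM (linear axis) of each chaperone family in the 4 libraries, with 1 bar per library and the number of genes in brackets; there are no replicates and so no error bars. HSP90 was highest in Runx1+ IAHCs (3571 TPM), and HSP70 stood at 2770 TPM in Runx1- IAHCs against 793.4 to 1269 TPM elsewhere.

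Of the 9 families, 6 had their highest sum in Runx1- IAHCs and 3 in Runx1+ IAHCs (HSP90, HSP60 with HSP10, and DNAJA). HSP70 genes summed to 2770 TPM in Runx1- IAHCs, while the EC, HEC and Runx1+ IAHC sums were 793.4, 1269 and 1144 TPM. HSP60 with HSP10 summed to 1128 TPM in Runx1+ IAHCs, while the EC, HEC and Runx1- IAHC sums were 452.4, 502.5 and 646.1 TPM. The highest library of 7 families was the same under both other scalings. The small heat shock protein symbols were an exception, at 43.8 TPM in Runx1- IAHCs and 41.7 TPM in ECs, where the order turned under either scaling. DNAJA was the other, at 257.0 TPM in Runx1+ IAHCs and 214.7 TPM in ECs as deposited, but at 235.8 and 260.0 TPM with median-of-ratios scaling. HEC levels of 2 families also crossed those of ECs under the other scalings: DNAJC and HSP60 with HSP10 were higher in HECs as deposited and lower in HECs with either alternative.

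Of the 70 members, 45 reached 10 TPM in at least 1 library, and 25 stayed under it in every library. Among the 45, the highest library was Runx1- IAHC for 27 (60.0%), Runx1+ IAHC for 7 (15.6%), HEC for 6 (13.3%) and EC for 5 (11.1%). Of all genes at this level, 47.6% were highest in Runx1- IAHCs, 19.2% in Runx1+ IAHCs, 16.1% in HECs and 17.1% in ECs, so that Runx1- IAHCs came first for members and for genes at large. Runx1- IAHCs were the highest library of 23 members with median-of-ratios scaling (40.2% of all genes) and of 21 with scaling over protein coding genes (37.3% of all genes). The 25 low members had another tally, with 10 highest in ECs, 8 in Runx1+ IAHCs, 4 in HECs and 3 in Runx1- IAHCs. Among the 45, the lowest library was EC for 18 members (40.0%, against 35.5% of all genes).

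**Figure D2:**
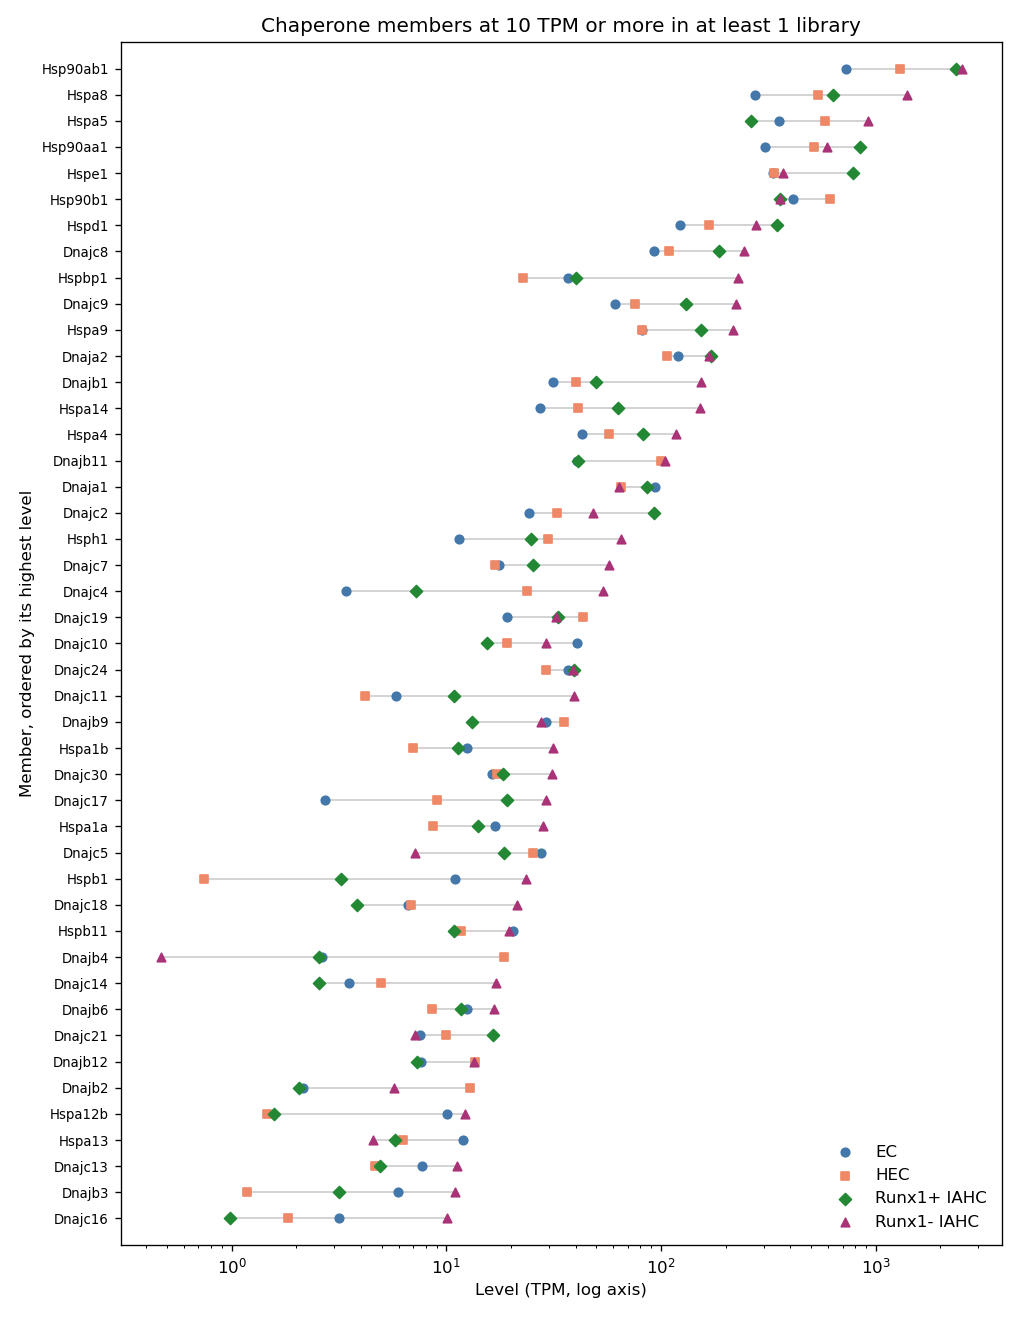
Level in TPM (log axis) of the 45 members that reached 10 TPM in some library, with 1 symbol per library and a grey line from the lowest to the highest value. Hsp90ab1 is at the top, from 729.3 to 2519 TPM, and the triangles of Runx1- IAHCs lie rightmost for 27 members.

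The HSP90 genes were the most abundant. Hsp90ab1, the constitutive cytosolic HSP90, was at 729.3 TPM in ECs, 1292 TPM in HECs and, among IAHCs, 2371 TPM in the Runx1+ and 2519 TPM in the Runx1- library. Hsp90aa1, its stress-inducible counterpart, was at 303.4, 517.5, 840.3 and 592.9 TPM in the same libraries. Both were lowest in ECs, but their ratio was not constant. In TPM, Hsp90ab1 was 2.40 times Hsp90aa1 in ECs, 2.50 times in HECs and, among IAHCs, 2.82 times in the Runx1+ and 4.25 times in the Runx1- library. Hsp90b1, the HSP90 of the ER, followed another order, with 410.5 TPM in ECs, 609.3 TPM in HECs and, among IAHCs, 359.4 TPM in the Runx1+ and 359.5 TPM in the Runx1- library. Its deposited level was therefore highest in HECs and close in both IAHC libraries.

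Among HSP70 genes, Hspa8, the constitutive cytosolic HSP70, was at 273.1 TPM in ECs, 536.3 TPM in HECs and, among IAHCs, 630.1 TPM in the Runx1+ and 1401 TPM in the Runx1- library. Hspa5 (BiP), the HSP70 of the ER, was at 355.5, 582.4, 261.4 and 923.1 TPM. Hspa5 was thus lowest in Runx1+ IAHCs, where Hspa8 stood above its level in ECs and HECs. The ratio of Hspa8 to Hspa5 was 0.768 in ECs, 0.921 in HECs and, among IAHCs, 2.41 in the Runx1+ and 1.52 in the Runx1- library. Hspa9 (mortalin), which pulls proteins into the mitochondrion, was at 81.2 TPM in ECs, 81.4 TPM in HECs and, among IAHCs, 153.1 TPM in the Runx1+ and 217.3 TPM in the Runx1- library. Hspa14, which works at the ribosome with the DnaJ protein Dnajc2, was at 27.4, 40.9, 63.0 and 152.0 TPM. Dnajc2 itself was at 24.3, 32.9, 92.4 and 48.2 TPM, so that the partners peaked in different IAHC libraries. Hspa12b, a divergent HSP70 known from endothelium, was at 10.1 TPM in ECs and 12.2 TPM in Runx1- IAHCs, but at 1.46 and 1.57 TPM in HECs and Runx1+ IAHCs. It was high in the same pair of libraries as the endothelial genes. Hspa13, a microsomal HSP70, was at 11.9, 6.29, 5.78 and 4.54 TPM.

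Of the exchange factors of HSP70, Hspa4, Hsph1 and Hspbp1 were lowest in ECs or HECs and highest in Runx1- IAHCs. Hspa4, an HSP110 gene, was at 42.9, 57.1, 82.3 and 117.6 TPM. Hsph1, the stress-inducible HSP110, was at 11.4 TPM in ECs, 29.8 TPM in HECs and, among IAHCs, 24.8 TPM in the Runx1+ and 65.3 TPM in the Runx1- library. Hspbp1, which binds HSP70 and promotes the release of its nucleotide, was at 37.0, 22.9, 40.2 and 229.2 TPM. The last value stood apart from the other libraries by 5.71-fold or more. The third HSP110 gene, Hspa4l, had 269, 923, 547 and 1 reads, and was the only member of its family with the fewest in Runx1- IAHCs.

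The mitochondrial chaperonin was highest in Runx1+ IAHCs. Hspd1 (HSP60) was at 122.0 TPM in ECs, 166.7 TPM in HECs and, among IAHCs, 347.2 TPM in the Runx1+ and 276.7 TPM in the Runx1- library. Hspe1 (HSP10) was at 330.5, 335.8, 780.6 and 369.4 TPM. The ratio of Hspe1 to Hspd1 was 2.71 in ECs, 2.01 in HECs and, among IAHCs, 2.25 in the Runx1+ and 1.34 in the Runx1- library. The genes lie side by side on chromosome 1 and share 112 exonic bases. Processed pseudogenes make both uncertain. Hspd1-ps3 was listed at 23.4 to 102.2 TPM, and Hspe1-ps2, Hspe1-ps3, Hspe1-ps5 and Hspe1-ps6 at 14.2 to 117.7 TPM, and reads of a gene and of its copy may be split between them.

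Promoter windows of RefSeq (GRCm38.p6, from 250 bases before to 50 bases after a start site) matched 56 of the 70 members by symbol. Not matched were Dnajc2, Dnajc5, Dnajc5b, Dnajc11, Dnajc12, Dnajc18, Dnajc22, Dnajc30, Hsp90aa1, Hsp90ab1, Hspa8, Hspa9, Hspa13 and Hspb2. The heat shock element, to which heat shock factors bind, was searched on both strands as 3 inverted pentamers without mismatch (GAANNTTCNNGAA or TTCNNGAANNTTC). It was found for 4 of the 56 members, Hspd1, Hspe1, Hsph1 and Dnajb6, and for 0.662% of all 27025 genes with a window. The Hspd1 window with the match (minus strand) and the Hspe1 window (plus strand) have start sites 215 bases apart on chromosome 1. Both of these windows hold the same match. Hspd1 has another window without this match, and the genes share 112 exonic bases on opposite strands. The 30 bases around each match are shown because they are the stretches that members with the element share, with the match in capitals. The Hspd1 and Hspe1 match lies at chr1:55088053-55088082 (printed on the plus strand), that of Dnajb6 at chr5:29735843-29735872 (plus strand) and that of Hsph1 at chr5:149636280-149636309 (minus strand).
Hspd1 and Hspe1: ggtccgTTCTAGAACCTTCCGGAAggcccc
Dnajb6: cagctccgaGAATCTTCCGGAAcgctagac
Hsph1: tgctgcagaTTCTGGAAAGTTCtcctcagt
In the first stretch 2 matches overlap, so that 18 bases are in capitals. The Hsph1 match begins at base 16 after the start site. The members with this element differed in their levels: Hspd1 and Hspe1 were highest in Runx1+ IAHCs, and Hsph1 and Dnajb6 in Runx1- IAHCs.

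With 2 pentamers (GAANNTTC or TTCNNGAA), 16 of the 56 members matched (28.6%), against 17.0% of all 27025 genes with a window. Among them were Hspa1a, Hspa1b and Hspb1, which are induced by heat, and Dnajb4. Of the other inducible members, Hsph1 matched too, Dnajb1 had a window without a match of 2 or 3 pentamers, and Hsp90aa1 had no window. The stretches are shown to compare the inducible members, and each holds a 2-pentamer match in capitals. They lie at chr17:34972242-34972271 (Hspa1a), chr17:34959324-34959353 (Hspa1b) and chr3:152193841-152193870 (Dnajb4), all on the minus strand, and at chr5:135887811-135887840 (Hspb1, plus strand).
Hspa1a: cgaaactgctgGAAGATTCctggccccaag
Hspa1b: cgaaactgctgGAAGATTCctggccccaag
Hspb1: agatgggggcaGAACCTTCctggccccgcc
Dnajb4: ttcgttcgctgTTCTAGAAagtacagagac
The Hspa1a and Hspa1b stretches are the same over their whole length. For the ER members, the ER stress element (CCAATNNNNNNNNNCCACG, both strands) was found in the windows of Hspa5 and Hsp90b1 and for 0.137% of all genes. It was 1 of 4 further motifs looked at after the levels were known. The unfolded protein response element (TGACGTG, both strands) was in 3 members (Dnajc25, Hspa1l and Hspa5) and 2.22% of all genes. The CCAAT box was in 23 members (41.1%, and 41.1% of all genes), and the TATA box (TATAAA, both strands) in 4 members and 15.7% of all genes. The ER stress element of Hspa5 lies at chr2:34772019-34772048 (plus strand), and those of Hsp90b1 at chr10:86705633-86705662 and chr10:86705528-86705557 (minus strand), the last with the element reversed. They are shown because Hspa5 and Hsp90b1 were the ER members at the highest level.
Hspa5: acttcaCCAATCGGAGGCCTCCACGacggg
Hsp90b1, far: acaagcCCAATCGCAAGGAGCCACGcttcg
Hsp90b1, near: agagtgCGTGGTGAGGCACGATTGGtgagt
A match of letters is a description and does not show that a factor binds there. Hspa5 and Hsp90b1 shared the element but not the order of their levels: Hspa5 was 2.57 times the level of Hsp90b1 in Runx1- IAHCs and 0.727 times in Runx1+ IAHCs.

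Of the stress-inducible members, Hspa1a, Hspa1b and Hspb1 stayed at 31.5 TPM or less in every library. Hsp90aa1 was far more abundant, from 303.4 TPM in ECs to 840.3 TPM in Runx1+ IAHCs. Hspa1a was at 16.9 TPM in ECs, 8.68 TPM in HECs and, among IAHCs, 14.1 TPM in the Runx1+ and 28.3 TPM in the Runx1- library. Hspa1b was at 12.4, 7.00, 11.3 and 31.5 TPM. The coding sequences of Hspa1a and Hspa1b are nearly identical, so their separate values are uncertain. Hspb1 (HSP25), a small heat shock protein, was at 10.9 TPM in ECs, 0.743 TPM in HECs and, among IAHCs, 3.24 TPM in the Runx1+ and 23.5 TPM in the Runx1- library. Only 7 reads stood behind the HEC value, and a pseudogene, Hsp25-ps1, was listed at 0.152 to 8.56 TPM in the same order of libraries. Dnajb1, the inducible HSP40, was at 31.4, 40.1, 49.8 and 153.4 TPM. Hspa1a, Hspa1b and Hspb1 were lowest in HECs, whereas Dnajb1, Hsph1 and Hsp90aa1 were lowest in ECs (Dnajb1 in HECs with scaling over protein coding genes), so the inducible members did not share 1 order. Genes that respond to cell dissociation, a list that includes Fos, Jun and Dusp1, summed to 358.5 TPM in ECs, 311.6 TPM in HECs and, among IAHCs, 304.6 TPM in the Runx1+ and 906.3 TPM in the Runx1- library. Of the last value, Ier2 made up 448.4 TPM and Dusp1 159.5 TPM. In Runx1- IAHCs against ECs, 6 of 11 genes of this list compared were higher (66.2% of all genes). The median was 0.01 for the list and 0.71 for all genes. The summed level of the list and 5 of the 6 inducible members were highest in Runx1- IAHCs. So were 60.0% of the 45 members at 10 TPM or more and 47.6% of all genes at this level. The part of dissociation in the levels of the list and of the inducible members was not tested.

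Of the DNAJA genes, Dnaja1 was at 94.1, 65.4, 86.1 and 63.5 TPM and Dnaja2 at 120.5, 106.8, 170.1 and 166.5 TPM in ECs, HECs, Runx1+ IAHCs and Runx1- IAHCs. Both deliver clients to cytosolic HSP70, and both stayed within 1.59-fold across the libraries as deposited while Hspa8 spanned 5.13-fold. The ratio of Hspa8 to Dnaja2 was accordingly 2.27 in ECs, 5.02 in HECs and, among IAHCs, 3.70 in the Runx1+ and 8.42 in the Runx1- library. The ratio of Hspa8 to Dnajb1 moved less, between 8.70 and 13.4.

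Of the DNAJB genes, Dnajb4, Dnajb2 and Dnajb11 were higher in HECs than in ECs. Dnajb4, a cytosolic HSP40, was at 2.63 TPM in ECs, 18.5 TPM in HECs and, among IAHCs, 2.57 TPM in the Runx1+ and 0.467 TPM in the Runx1- library, and so was high in HECs alone. Dnajb2, which is best known from neurons, was at 2.15, 12.9, 2.06 and 5.74 TPM. Dnajb11, a DnaJ partner of BiP in the ER, was at 40.5 TPM in ECs, 99.9 TPM in HECs and, among IAHCs, 40.9 TPM in the Runx1+ and 104.5 TPM in the Runx1- library. Dnajb9, another ER partner of BiP, was at 29.2, 35.1, 13.1 and 27.6 TPM.

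Of the DNAJC genes, Dnajc8, a protein associated with splicing, was at 92.3, 108.8, 185.9 and 242.4 TPM. Dnajc9, a chaperone of histones H3 and H4, was at 61.2, 75.5, 130.3 and 223.7 TPM. As deposited, both were ordered ECs, HECs, Runx1+ IAHCs and Runx1- IAHCs from low to high. With scaling over protein coding genes HECs were below ECs for Dnajc8 (log2 difference -0.26) and Dnajc9 (-0.20), and both IAHC libraries were level for Dnajc8 (0.01). Dnajc7, which binds HSP70 and HSP90, was at 17.6, 16.8, 25.3 and 57.2 TPM. Dnajc11, a mitochondrial membrane protein, was at 5.86, 4.18, 10.9 and 39.2 TPM. Dnajc17 was at 2.72, 9.07, 19.1 and 29.2 TPM, with 29 reads behind the EC value. Dnajc4 was at 3.42 TPM in ECs (30 reads), 23.8 TPM in HECs, 7.22 TPM in Runx1+ IAHCs and 53.8 TPM in Runx1- IAHCs, with the widest range of the members at 10 TPM or more after Hspb1 and Dnajb4. Dnajc14 was at 3.53, 4.95, 2.55 and 17.1 TPM, but 19.9% of its exonic bases are shared with neighbouring genes. Dnajc16 was at 3.17, 1.82, 0.981 and 10.04 TPM and Dnajc18 at 6.66, 6.87, 3.86 and 21.4 TPM, both highest in Runx1- IAHCs. Other DNAJC members were not highest in Runx1- IAHCs. Dnajc5 (cysteine string protein), which acts in vesicle release, was at 27.6, 25.3, 18.6 and 7.18 TPM, lowest in Runx1- IAHCs. Dnajc21, which takes part in ribosome assembly, was at 7.55, 9.96, 16.6 and 7.16 TPM. Dnajc10, an ER disulfide reductase, was at 40.6, 19.1, 15.5 and 29.1 TPM. Dnajc19, part of the mitochondrial import motor, was at 19.2 to 43.3 TPM, below its processed pseudogene Dnajc19-ps at 140.9 to 296.4 TPM, and its level is therefore uncertain.

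Of the 25 members under 10 TPM, 5 (Dnajc5b, Dnajc5g, Hspa1l, Hspb2 and Hspb9) had no read in any library, which allows levels of up to 0.116 to 0.49 TPM at 3 reads. Several of the others had most of their reads in 1 library. Hspb8, a small heat shock protein that works with Bag3, had 111, 17, 1 and 0 reads. Hspa12a, a close relative of Hspa12b, had 100, 7, 9 and 0 reads, most of them in ECs. Dnajb5 had 64 reads in ECs, 11 in Runx1+ IAHCs and 0 in both other libraries. Hspb3 had 31 reads in Runx1+ IAHCs and 0 in the other libraries. Dnajb13, a gene of motile cilia and sperm, had 3, 0, 6 and 109 reads, nearly all in Runx1- IAHCs. Hspa2, known for its role in sperm formation, had 62, 107, 81 and 1 reads. In Runx1- IAHCs, the library with the highest germ cell sum, Hspa2 was thus close to its floor.

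The first comparison asked how HECs differed from ECs. Differences are of log2(TPM + 1), which understates the difference of low genes, and were taken for genes that reached 10 TPM in the higher of the libraries. Of 37 members compared, HECs had 3 at 4-fold or more above ECs (8.87% of all 7793 genes so compared), and 2 at 4-fold or more below (9.24% of all genes). The higher members were Dnajc4 with a log2 difference of 2.49 (7.15-fold in reads, interval 4.89 to 10.8), Dnajb4 with 2.43 (7.09-fold, 6.11 to 8.28) and Dnajb2 with 2.14 (6.08-fold, 4.78 to 7.83). The lower members were Hspb1 with -2.78 (16.6-fold, 7.77 to 42.5) and Hspa12b with -2.17 (7.03-fold, 5.26 to 9.54). At 2-fold, 6 members were higher (22.7% of all genes) and 3 lower (18.6% of all genes). Dnajb11 and Hsph1 followed with differences of 1.28 and 1.31. The median of the members was 0.26 and that of all genes 0.12. Scaling over protein coding genes took these medians to -0.23 and -0.48, so the direction of the members' median turned while it stayed above that of all genes. Of the members named here, Dnajb2 then fell short of 4-fold, at 1.75, and Dnajb11 and Hsph1 of 2-fold, at 0.79 and 0.84. At 2-fold, 3 members were then higher (12.6% of all genes) and 9 lower (32.8% of all genes).

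The second comparison set Runx1+ against Runx1- cells within the ckit+ clusters. Of 42 members, 0 passed 4-fold on the Runx1+ side (5.6% of all 8726 genes did), and 7 on the Runx1- side (17.5% of all genes). The 7 were Dnajc4 (-2.74), Hspb1 (-2.53), Hspbp1 (-2.48), Dnajc16 (-2.48), Hspa12b (-2.36), Dnajc14 (-2.35) and Dnajc18 (-2.21). Hspbp1, the most abundant of them, was 5.71-fold lower in reads (interval 5.29 to 6.18). At 2-fold, 19 members were lower in Runx1+ IAHCs (37.9% of all genes) and 3 higher (15.8% of all genes). Among the 19 were the abundant Hspa5 (-1.82), Dnajb1 (-1.60) and Hspa8 (-1.15). The 3 were Dnajc5 (1.26), Dnajc21 (1.11) and Hspe1 (1.08). Dnajc2 (0.92), Hsp90aa1 (0.50), Dnaja1 (0.43) and Hspd1 (0.33) were also on the Runx1+ side. Hsp90b1 was at 1.00-fold in reads (interval 0.977 to 1.02). The median was -0.83 for members and -0.53 for all genes. With scaling over protein coding genes, 5 members were 4-fold lower (12% of all genes), since Dnajc18 stood at -1.85 and Dnajc16 no longer reached 10 TPM. At 2-fold, 10 members were then lower (27.5% of all genes) and 4 higher (23.7% of all genes), without Hspa8 (-0.76), Hspa14 (-0.87), Hsph1 (-0.98), Dnajb11 (-0.95) and Dnajb9 (-0.65) among the lower ones. The 12 germ cell genes so compared were all past 4-fold on the Runx1- side, and their part in the chaperone differences was not tested.

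The third comparison set Runx1+ IAHCs against HECs, the Runx1+ populations with and without ckit. Of 37 members, 0 passed 4-fold upwards in the clusters (2.79% of all 7279 genes did) and 2 downwards (6.22% of all genes). The 2 were Dnajb4 at -2.45 and Dnajb2 at -2.19, the same genes that were apart in HECs against ECs, with which this comparison shares the HEC library. At 2-fold, 4 members were higher (13.3% of all genes): Dnajc2 (1.46, or 2.81-fold in reads with an interval of 2.66 to 2.97), Hspe1 (1.21), Dnajc11 (1.20) and Hspd1 (1.05). A further 6 were lower (13.9% of all genes): besides Dnajb4 and Dnajb2 these were Dnajc4 (-1.59), Dnajb9 (-1.35), Dnajb11 (-1.27) and Hspa5 (-1.15), of which Dnajb9, Dnajb11 and Hspa5 act in the ER. Hsp90b1 was also lower, at -0.76. The median was 0.42 for members and 0.19 for all genes. With scaling over protein coding genes, 10 members were 2-fold higher (22.8% of all genes) and 4 lower (10.6% of all genes), without Hspa5 (-0.88) and Dnajb11, which fell just short. With median-of-ratios scaling 2 were higher (8.31% of all genes) and 6 lower (17.3% of all genes).

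The fourth comparison set Runx1- IAHCs against ECs, the Runx1- populations with and without ckit. It shares the Runx1- IAHC library with the second comparison and the EC library with the first. Genes that recur between these comparisons are therefore not independent findings. Of 42 members, 8 passed 4-fold upwards in the clusters (20.9% of all 8936 genes did) and 0 downwards (6.39% of all genes). The 8 were Dnajc4 (3.63), Dnajc17 (3.02), Hspbp1 (2.60), Dnajc11 (2.55), Hspa14 (2.43), Hsph1 (2.42), Hspa8 (2.36) and Dnajb1 (2.25). Hspa8 was 5.13-fold higher in reads (interval 5.02 to 5.24) and Dnajc4 16.2-fold (11.2 to 24.3). At 2-fold, 22 members were higher (42.5% of all genes) and 2 lower (16.6% of all genes), the latter being Dnajc5 (-1.81) and Hspa13 (-1.22). The median was 1.11 for members and 0.71 for all genes. This comparison depended most on the scaling. With median-of-ratios scaling the medians were 0.67 and 0.08, and 4 members were 4-fold higher (12.9% of all genes). Hspa8, Hspa14, Dnajb1 and Hsph1 then stood at 1.75 to 1.93. With scaling over protein coding genes the medians were 0.56 and -0.06, and 2 members were 4-fold higher (11.2% of all genes). Under both scalings Dnajc5 became 4-fold lower, at -2.28 and -2.38 (11.8% and 13.2% of all genes were so). At 2-fold, 13 members were higher and 3 lower with the first (29.4% and 27.2% of all genes), and 12 higher and 4 lower with the second (26.9% and 29.6%).

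**Figure D3:**
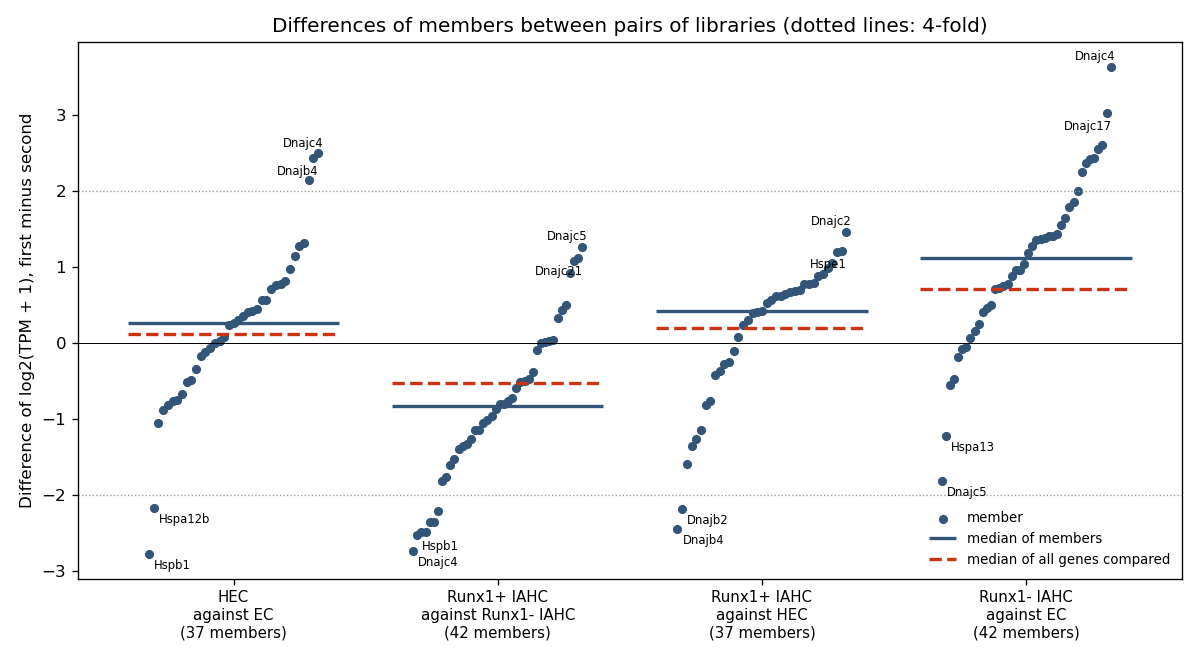
Difference of log2(TPM + 1) between 2 libraries (first minus second) for each member compared, sorted within each of the 4 comparisons; solid bars are the median of members, dashed bars that of all genes compared, and dotted lines mark 4-fold. The members' medians (0.26, -0.83, 0.42 and 1.11) lie on the same side of 0 as those of all genes (0.12, -0.53, 0.19 and 0.71).

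The members' median was farther from 0 than that of all genes in each comparison as deposited, by 0.14, 0.30, 0.24 and 0.40 log2 units in the order given. The share of members past 4-fold was nevertheless below that of all genes as deposited in 8 of the 8 counts, which are the higher and the lower side of each comparison. Most of these shares were near the background, and nothing particular to chaperones is read from them.

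Both Runx1 contrasts, in ckit- cells (HECs against ECs) and in ckit+ cells (Runx1+ against Runx1- IAHCs), could be set side by side for 34 members without shared libraries. Hspb1 and Hspa12b were lower on the Runx1+ side in both, at -2.78 and -2.17 in ckit- cells and at -2.53 and -2.36 in ckit+ cells. Endothelial genes were also lower on the Runx1+ side in both, for all 16 and 15 genes compared. Dnajc4, Dnajb11 and Hsph1 were at least 2-fold higher on the Runx1+ side in ckit- cells and at least 2-fold lower in ckit+ cells. Of all genes, 9.71% had such opposite differences, so 3 of 34 members is close to the background. With scaling over protein coding genes only Dnajc4 kept such differences (10.9% of all genes), as Dnajb11 (0.79 and -0.95) and Hsph1 (0.84 and -0.98) fell short of 2-fold in both contrasts.

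**Figure D4:**
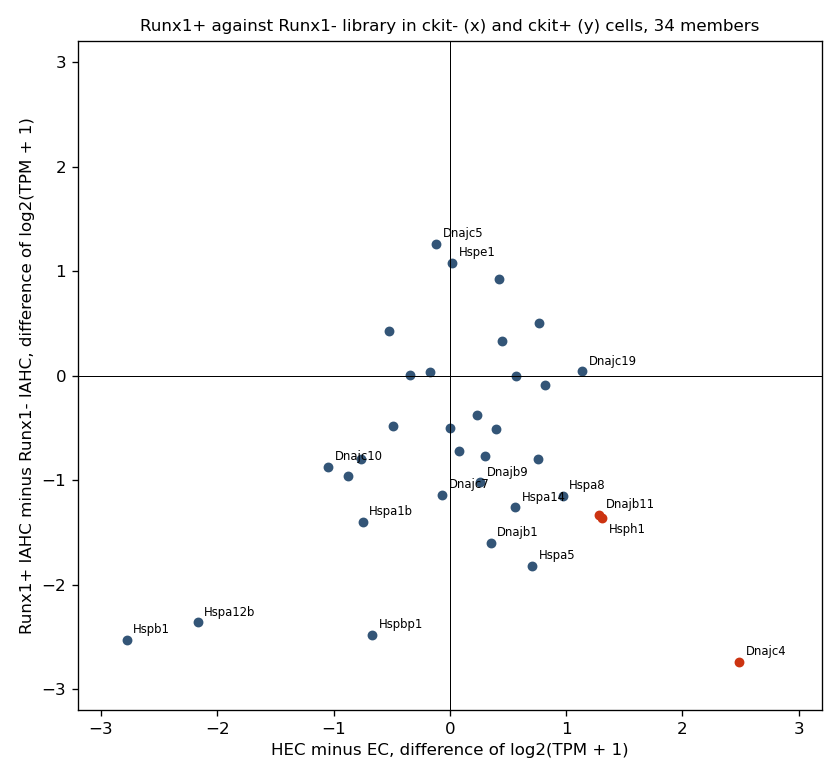
Difference of log2(TPM + 1) for HECs minus ECs (x axis) and for Runx1+ minus Runx1- IAHCs (y axis) for the 34 members compared in both; names are given for members at 2-fold or more on either axis or marked in red for opposite differences of at least 2-fold. Hspb1 and Hspa12b lie at the lower left, and Dnajc4 (2.49 and -2.74) at the lower right with Dnajb11 and Hsph1.

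By the place where the proteins work, 22 of the 70 members were grouped as cytosolic or nuclear, 9 as ER and 6 as mitochondrial. The remaining members were in no group. All 22 cytosolic and all 6 mitochondrial members reached 10 TPM in some library, so low members such as Hspa2, Hspa4l and Hspb8 are not covered. The groups were drawn up with the values known and get no test. The cytosolic sum was 1950 TPM in ECs, 3043 TPM in HECs and, among IAHCs, 4888 TPM in the Runx1+ and 6159 TPM in the Runx1- library. The ER sum was 902.8, 1373, 709.8 and 1465 TPM, and the mitochondrial sum 575.0, 648.7, 1343 and 965.7 TPM. Runx1+ IAHCs thus held the lowest ER sum and the highest mitochondrial sum, also under both other scalings. The highest ER sum moved to HECs under both, and the highest cytosolic sum to Runx1+ IAHCs with scaling over protein coding genes. Hspd1 and Hspe1 carried the mitochondrial sum of Runx1+ IAHCs, with 1128 of the 1343 TPM. Against Runx1- IAHCs, 3 of 6 mitochondrial members were higher in Runx1+ IAHCs (36.0% of all genes). The median there was -0.23 for these members and -0.53 for all genes. In Runx1+ IAHCs against HECs, none of 6 ER members was higher (median -0.98), whereas 5 of 6 mitochondrial members (median 0.98) and 18 of 22 cytosolic members (median 0.61) were. Of all genes in this comparison, 58.7% were higher. In Runx1- IAHCs against ECs, the medians were 1.43 for 19 cytosolic members, 1.03 for 6 mitochondrial members and -0.08 for 7 ER members. The median of all genes was 0.71. The ER median depends on which members are placed in that group. Dnajc14, Dnajc16 and Dnajc18 were in no group and stood at 2.0, 1.40 and 1.55 in this comparison.

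**Figure D5:**
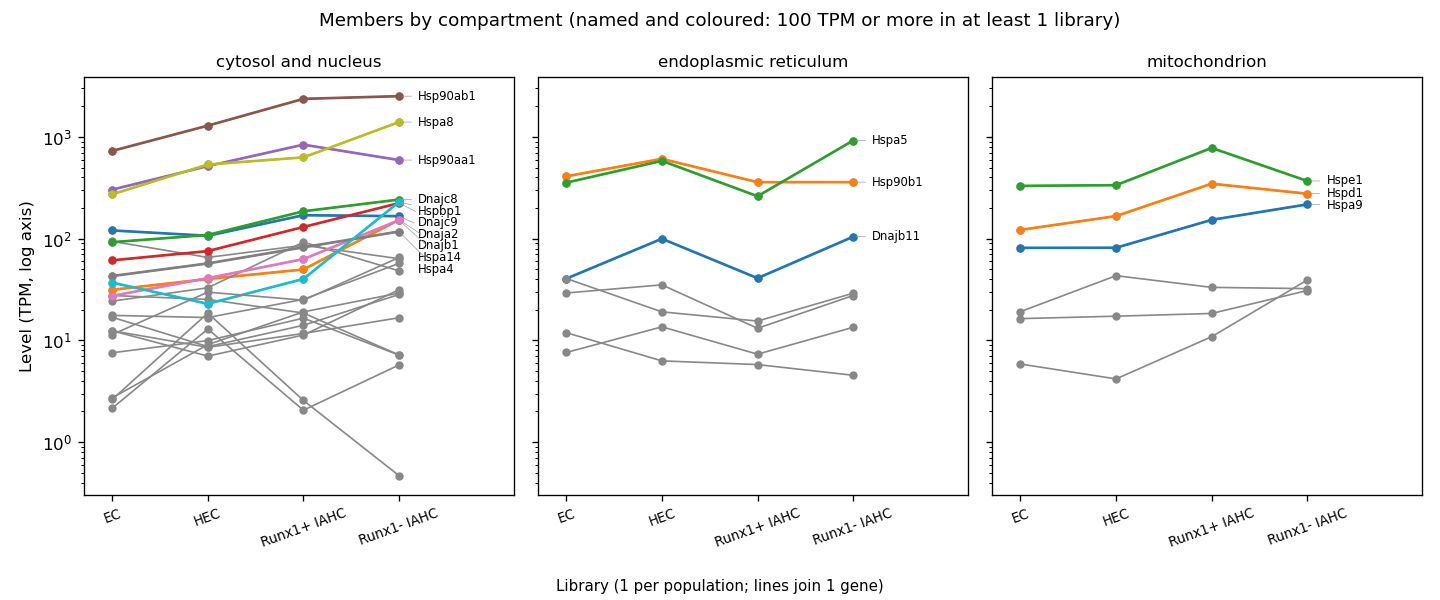
Level in TPM (log axis) of members by compartment across the 4 libraries, with 1 line per gene; members that reached 100 TPM in a library are coloured and named, the others at 10 TPM or more are grey. Hspa5, Hsp90b1 and Dnajb11 dip in Runx1+ IAHCs relative to HECs (Hspa5 from 582.4 to 261.4 TPM), where Hspd1 and Hspe1 are at their highest (347.2 and 780.6 TPM).

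Other genes of the folding pathways were read from lists that do not overlap with the members. The ER folding and unfolded protein response list (Calr, Canx, protein disulfide isomerases and stress sensors, 12 genes measured) had the order of the ER members as deposited, with 1522 TPM in ECs, 2335 TPM in HECs and, among IAHCs, 1473 TPM in the Runx1+ and 2934 TPM in the Runx1- library. In Runx1+ IAHCs against HECs 0 of its 9 genes compared were higher (58.7% of all genes), and the median was -0.71 (0.19 for all genes). Past 4-fold were Ddit3 and Xbp1, transcription factors of the stress response, with Ddit3 at 70.2 and 16.2 TPM in these libraries, HECs first, and Xbp1 at 138.9 and 27.9 TPM. Pdia4, a disulfide isomerase, was at 557.4 TPM in Runx1- IAHCs against 50.4 to 61.6 TPM elsewhere. The HSP90 cofactors summed to 536.9, 725.3, 1059 and 2263 TPM, and 6 of 13 were 4-fold higher in Runx1- IAHCs than in ECs (20.9% of all genes). With either other scaling 4 were (12.9% and 11.2% of all genes). Stip1, which hands clients from HSP70 to HSP90, was at 37.1, 145.7, 137.9 and 688.4 TPM, and Fkbp4, a cochaperone of steroid receptors, at 72.3, 113.8, 210.0 and 579.2 TPM. Fkbp5 and Tomm70a were the reverse, at 0.254 and 28.6 TPM in Runx1- IAHCs and 14.8 and 78.5 TPM in ECs. The HSP70 cofactors summed to 328.7, 549.9, 588.2 and 803.9 TPM, with Stub1 (CHIP, a ubiquitin ligase that binds HSP70) at 8.51, 38.3, 55.5 and 186.2 TPM. Of the 13 HSP70 cofactors compared in Runx1- IAHCs against ECs, 2 were 4-fold higher (20.9% of all genes) and 1 lower (6.39% of all genes). The lower gene was Sec63, an ER membrane protein with a J domain, at 21.9 TPM in ECs and 3.11 TPM in Runx1- IAHCs (-2.48). Bag3, an exchange factor of HSP70, was also lower, at 27.5 and 13.8 TPM (-0.95).

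The cytosolic chaperonin and prefoldin, which fold actin and tubulin, summed to 1876, 2426, 3216 and 4442 TPM, and 11 of 13 genes were higher in Runx1- IAHCs than in ECs (66.2% of all genes), 3 of them at least 4-fold (20.9% of all genes). The mitochondrial folding list, which shares Trap1 and Grpel1 with the cofactor lists, summed to 324.3, 628.2, 700.4 and 1711 TPM, and all 8 genes were 2-fold higher in Runx1- IAHCs than in ECs (median 2.23), against 42.5% of all genes (median 0.71). With either other scaling 7 of the 8 were 2-fold higher (medians 1.77 and 1.67), against 29.4% and 26.9% of all genes. None of the 8 was higher in Runx1+ than in Runx1- IAHCs (36.0% of all genes), unlike Hspd1 and Hspe1. The median there was -1.19 for the list and -0.53 for all genes. Of the 6 heat shock factor genes listed, 5 were measured, and Hsf1 was not among them. Hsf2 was at 6.51 TPM in ECs, 1.82 TPM in HECs and, among IAHCs, 3.12 TPM in the Runx1+ and 16.6 TPM in the Runx1- library. Hsbp1, a small protein that binds heat shock factors, was at 191.8 to 256.3 TPM, within a narrow range in the 4 libraries. The library preparation did not mark the strand, so members that share exons with antisense genes are uncertain in part: 44.1% of the exonic bases of Dnaja4 are shared with Wdr61, 26.2% of those of Dnajc30 with Bud23 and 15.7% of those of Hsp90b1 with neighbouring transcripts, and Hspa1a overlaps Gm20481.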

How the data were processed

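Bulk RNA was measured in 4 sorted populations with 1 library each, and each library was assigned to its population by its label. The authors aligned single reads with HISAT2 2.0.4 to GRCm38 (both named in the submitters' processing notes), counted genes in union mode with a GENCODE annotation, and deposited TPM values on a linear scale. In union mode, a read that overlaps several genes is not counted. TPM is relative to the whole library, so a gene set that takes many transcripts lowers all other values.

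Deposited TPM values, multiplied by exonic length, were whole multiples of 1 step per library, with 1 read added to every gene. With exonic lengths of GENCODE M21 on this build, 49294 genes (96.3%) came out whole within 0.0001 reads, among them 64 members. For the other 6 (Hspa9, Hspa12a, Hspa13, Dnajc4, Dnajc18 and Dnajc28) the smallest length that gave whole reads was used. Totals were 13188697 (EC), 16377799 (HEC), 15412242 (Runx1+ IAHC) and 17233015 (Runx1- IAHC) reads. Intervals are exact (Clopper-Pearson for ratios) and cover counting error only, as PCR copies were not marked with molecular identifiers. No sequencing reads were used, and a count model was not run, since 1 library per population leaves no residual spread.

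Genes that reached 10 TPM in the higher of 2 libraries were compared as differences of log2(TPM + 1), with 4-fold as the rule of size and 2-fold as a second one. Named are members that reached 100 TPM in a library, those past 4-fold, the 5 highest and 5 lowest per comparison, and 6 stress-inducible members. Members of the pathway lists past 4-fold may also be named. Dnaja4, Dnajb5, Dnajb13, Dnajc7, Dnajc19, Hspa2, Hspa4l, Hspa12a, Hspb3, Hspb8 and Hspb11, and the list genes given without a 4-fold difference, were named after their values were seen. The members and lists were chosen with earlier results of these data known. The compartment groups, the pairs in ratios and 4 of the 5 motifs were chosen after the values were seen. The protein coding scaling was brought to the same average level as the deposited values, also after a first look. Alternatives were other minima, pseudocounts and scalings. Protein sequence features were not run. Other sheets of the workbook, with 11 columns whose names match no sample label, were not used.

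The calculation was tested on simulated libraries with 200 genes changed 8-fold. Python 3.11.15, numpy 2.4.6, pandas 2.3.3, scipy 1.17.1 and matplotlib 3.10.9 were used.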

Additional observations from a re-analysis of the deposited data

Results flagged for a closer look

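Dnajc4, Dnajb11 and Hsph1 differed in opposite directions in the Runx1+ against Runx1- contrast of ckit- and of ckit+ cells, by at least 2-fold in both, a limit set with the values known. The difference between the contrasts was not tested, since each population had 1 library. For Dnajc4, the log2 difference was 2.49 in HECs against ECs and -2.74 in Runx1+ against Runx1- IAHCs, which makes a gap of 5.22. For Dnajb11, which works with BiP in the ER, the differences were 1.28 and -1.33, with a gap of 2.62. For Hsph1, an HSP110 exchange factor, they were 1.31 and -1.36, with a gap of 2.67. The EC value of Dnajc4 rests on 30 reads, those of Dnajb11 and Hsph1 on 1103 and 698. With scaling over protein coding genes, Dnajb11 (0.79 and -0.95) and Hsph1 (0.84 and -0.98) fell short of 2-fold in both contrasts, and Dnajc4 (2.06 and -2.37) did not.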

How the results depend on the processing

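No paired analysis was possible because each population had 1 library. Median-of-ratios scaling moved the median of all genes from 0.12 to -0.14 (HEC against EC), from -0.53 to -0.40 (Runx1+ against Runx1- IAHC), from 0.19 to -0.05 (Runx1+ IAHC against HEC) and from 0.71 to 0.08 (Runx1- IAHC against EC), and scaling over protein coding genes moved it to -0.48, -0.07, 0.48 and -0.06. The members' median less that of all genes was 0.14, -0.30, 0.24 and 0.40 as deposited, 0.23, -0.29, 0.27 and 0.59 with the first scaling and 0.26, -0.37, 0.21 and 0.62 with the second. In HEC against EC, 3 members higher and 2 lower at 4-fold became 0 and 0 with a minimum of 50 TPM or a pseudocount of 5, and 6 were higher at 2-fold. In Runx1+ against Runx1- IAHC, 0 higher became 2 with a minimum of 1 TPM or no minimum and 3 at 2-fold; 7 lower became 2 with a minimum of 50 TPM or a pseudocount of 5 and 19 at 2-fold; the median with no minimum was -0.04. In Runx1+ IAHC against HEC, 0 higher became 1 with a minimum of 1 TPM or no minimum and 4 at 2-fold; 2 lower became 0 with a minimum of 50 TPM or a pseudocount of 5, 1 with protein coding scaling and 6 at 2-fold. In Runx1- IAHC against EC, 8 higher became 4 with median-of-ratios scaling, 2 with protein coding scaling and 22 at 2-fold; 0 lower became 1 with a minimum of 1 TPM, with no minimum and with either scaling, and 2 at 2-fold; the median with no minimum was 0.32. The counts of all genes past 4-fold moved too. At 50 TPM, HEC against EC had 339 higher and 189 lower of 2936 genes. Lower at 50 TPM were 540 of 3648 in Runx1+ against Runx1- IAHC and 201 of 2933 in Runx1+ IAHC against HEC. With a pseudocount of 5, these counts were 444, 348, 797 and 280 in the same order. At 1 TPM, 867 of 19930 and 361 of 17446 genes were higher in the latter comparisons. Members with a heat shock element numbered 4 with 3 pentamers and 16 with 2 pentamers. A lower minimum lets in low genes and a pseudocount of 5 shrinks them; why the scalings differ was not tested. A pseudocount of 0.5 moved none of the 12 counts and medians by more than 1.5-fold, and no called member changed direction under any alternative run. Depth limits the low members, as with the 7 reads of Hspb1 in HECs, and so does the small number of Runx1- IAHCs sorted. The planned protein features were not run.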
